A study of Mus musculus with 4 samples.

Results

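The transcripts described here encode 9 RNA-binding proteins that are known for choosing, carrying or holding back RNA when a cell loads it into vesicles. They were taken by symbol from the deposited gene table, where all 9 of Hnrnpa2b1, Hnrnpa1, Hnrnpk, Hnrnpu, Syncrip, Ybx1, Elavl1, Ago2 and Nono were found among 42977 genes. They were named by the proteins' known roles, with earlier results of these data already known. What was sequenced is RNA from preparations of exosomes, small vesicles shed into culture medium, so the values say nothing about the amount of each protein. Whether the reads of a gene come from whole mRNA, or from inside the vesicles, was not tested.

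The exosomes came from mesenchymal stem cells (MSCs, adherent stromal cells) grown from the bone marrow of male SD rats aged 6 to 8 weeks and used at passages 3 to 4. Both groups were kept in exosome-free IMDM medium. The control group, labelled MSC-Exo (2 libraries), came from cells given DMSO, the solvent, at the same volume as the drug. The statin group, labelled MSCATV-Exo (2 libraries), came from cells given 1 µmol/L atorvastatin (ATV), which blocks cholesterol synthesis. The labels state 24 h of treatment in one place and 48 h in another, register the samples as mouse although the protocol and genome build are of rat, and do not say whether the 2 libraries of a group came from separate animals or cultures. Every SD, SE and p below therefore rests on the spread between libraries, which may be technical.

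Vesicle RNA is not a plain sample of the RNA in the cell. Proteins of the hnRNP class, which coat new transcripts in the nucleus and shuttle to the cytoplasm, bind short sequence motifs and can bring the RNA that holds them to forming vesicles. Others act through the machinery of microRNA silencing or through control of mRNA stability, and several are themselves found in exosomes as proteins.

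Over the 4 libraries the gene table held 5350295 to 5947020 counts. The 9 genes together took 2459 and 2395 counts in the control libraries (replicate 1, then 2, here and below) and 2545 and 2938 in the statin libraries. Olfactory receptor genes, which MSCs are not known to use, served as a yardstick of reads that need not reflect expression. Their median level was 1.71 to 2.47 RPKM (reads scaled by gene length and library total) and their 95th percentile 9.13 to 10.1 RPKM. Of 6 MSC markers, Thy1 (14.7 to 24.2 RPKM) and Itgb1 (26.9 to 35.7 RPKM) were above 3 times that median in all 4 libraries, whereas Nt5e, Eng, Cd44 and Pdgfrb were not. None of the leukocyte (6), erythroid (3), endothelial (3), adipocyte (3), osteoblast (3) or hepatocyte (3) markers was above it in all 4 libraries. The summed level of the leukocyte markers was 23.4 to 28.2 RPKM in MSC-Exo and 17.7 to 18.7 RPKM in MSCATV-Exo, that of the endothelial markers 17.7 to 19.8 and 13.2 to 13.3 RPKM, and none of these markers was at 0 in all libraries. The sum of the 5 vesicle markers went the other way (control libraries 38.5 and 37.4 RPKM, statin libraries 39.7 and 51.8). Of these 5, Cd63 alone was above 3 times the olfactory receptor median in all 4 libraries. Single vesicle markers mostly overlapped between the groups: Cd81 alone was apart (6.96 and 6.57 against 8.08 and 7.86 RPKM). The highest sum went with Tsg101, at 15.6 RPKM in MSCATV-Exo replicate 2 beside 4.30 to 6.84 RPKM elsewhere. The part of such differences in the values below was not tested.

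The 9 transcripts fell into 3 abundant ones and 6 that lay within reach of the olfactory receptor genes. Hnrnpa1 was the most abundant in every library, with a mean of 72.3 ± 8.54 RPKM (SD, n = 4), followed in every library by Ybx1 at 54.8 ± 10.3 RPKM. Hnrnpa2b1 came next on average, at 21.8 ± 5.99 RPKM. These 3 were the members above the olfactory receptor 95th percentile in all 4 libraries. Among protein-coding genes they stood at the 96.8th percentile or higher, with Hnrnpa1 at the 99.5th to 99.6th.

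Hnrnpk (11.4 ± 4.62 RPKM), Hnrnpu (8.25 ± 0.884), Nono (6.97 ± 2.82), Ago2 (6.76 ± 2.25) and Elavl1 (6.27 ± 0.472) formed a middle group (mean RPKM ± SD, n = 4). The ranges of neighbours in this order overlapped from Hnrnpa2b1 down to Elavl1, and their places changed between libraries. The ranges of Hnrnpa1 and Ybx1 overlapped too, but only across libraries, since Hnrnpa1 was the higher in each of the 4. Gaps without overlap lay between Ybx1 and Hnrnpa2b1, a 2.51-fold step, and between Elavl1 and Syncrip, a 2.68-fold step. Syncrip was lowest in every library, at 2.34 ± 0.510 RPKM, and stood at the 17.8th to 33.1st percentile of protein-coding genes. Its level was 0.722, 1.21, 1.58 and 0.901 times the olfactory receptor median in the 2 control and then the 2 statin libraries, so its reads could not be told from that yardstick.

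**Figure D1:**
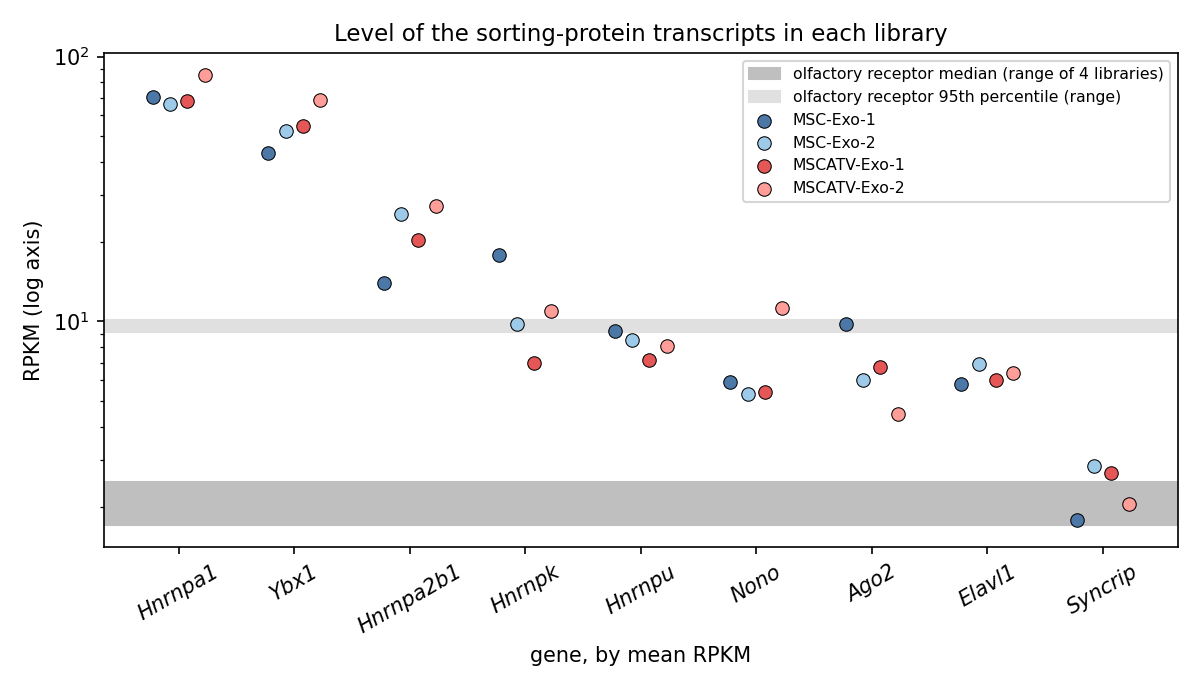
Level of each transcript in RPKM (log axis) in the 4 libraries, with genes ordered by mean RPKM; points are single libraries and the grey bands span the olfactory receptor median and 95th percentile over the libraries. Hnrnpa1 (66.4 to 84.9 RPKM), Ybx1 (43.4 to 68.3) and Hnrnpa2b1 (14.0 to 27.4) lie above both bands in every library, and Syncrip (1.78 to 2.85) lies in or next to the lower band.

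Whether atorvastatin changed the level of the sorting proteins' transcripts in exosomes was asked by comparing MSCATV-Exo with MSC-Exo. In the means, 6 of the 9 were higher and 3 lower in the statin group, and the median of their log2 fold changes was 0.14, where 49.4% of all genes tested were higher (median -0.01). The lean was slight: 5 of 9 were higher with total-count scaling (median 0.03) and 4 of 9 without MSC-Exo replicate 1 (median -0.02). Total-count scaling moved the median of all genes as well, to -0.11, with 42.9% higher. None passed edgeR's quasi-likelihood test (Benjamini-Hochberg adjusted p = 1 for each of the 9), in which 0 of 33480 genes were called (0%). At an unadjusted p under 0.05 it was 0 of the 9, against 1236 genes (3.69%), and DESeq2 also called 0 of the 9, against 95 genes (0.275%). In CPM (counts scaled for depth, here with TMM factors), the groups did not overlap for Hnrnpa1, Ybx1 and Nono on the higher side and Hnrnpu on the lower, 4 of 9 where 33.5% of all genes did so (16.1% higher, 17.4% lower). Of the 348 tested protein-coding genes with a mean of 20 RPKM or more, to which Hnrnpa1 and Ybx1 belong, 148 were apart on the higher side and 29 on the lower. In RPKM, which lacks those factors, Ybx1 and Hnrnpu alone of the 9 stayed apart. The share of all genes apart in RPKM was not computed, so this count has no background beside it.

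Ybx1 (chromosome 5, 138319754 to 138336721, minus strand, in the rn6 build, as for all positions here) encodes a cold-shock domain protein that binds mRNA, tRNA and other small RNAs and is needed to load a microRNA into exosomes of a human kidney cell line. It had 408 and 495 counts in the control libraries and 574 and 672 in the statin libraries, or 73.5 and 90.4 against 105 and 120 CPM. Both statin libraries were above both control libraries. Its log2 fold change of 0.46 ± 0.25 (SE; edgeR adjusted p = 1) had the smallest p of the 9, and with 1 library left out it was 0.31 to 0.62. The 1.37-fold difference between the group means compares with 1.23-fold between the MSC-Exo replicates and 1.14-fold between the MSCATV-Exo replicates. The 95% interval of the fit ran from -0.09 to 1.01.

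Hnrnpa2b1 (chromosome 4, 81237496 to 81241281, minus strand) encodes the protein best known for sorting, which in human T cells binds a short motif in exosomal microRNAs and is directed to vesicles in its SUMO-modified form. Control libraries had 79 and 144 counts and statin libraries 128 and 162, or 14.0 and 25.4 against 20.3 and 27.4 RPKM. MSC-Exo replicate 1 was the low library, and the groups overlapped. The log2 fold change was 0.37 ± 0.43 (SE; edgeR adjusted p = 1), and it turned to -0.02 without MSC-Exo replicate 1 and rose to 0.88 without MSC-Exo replicate 2. The fold between the MSC-Exo replicates, 1.85, exceeded that between the groups, 1.29.

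Hnrnpa1 (chromosome 7, 144865302 to 144871592, plus strand) encodes the closest relative of that protein, a splicing regulator that also binds microRNA precursors. Its counts were the highest of the 9, at 911 and 862 in the control and 978 and 1153 in the statin libraries. In RPKM, MSCATV-Exo replicate 2 alone stood out (70.2 and 66.4 against 67.8 and 84.9), while in TMM-scaled CPM both MSCATV-Exo libraries were higher (164 and 157 against 179 and 206). The log2 fold change was 0.26 ± 0.21 (SE; edgeR adjusted p = 1), with a 95% interval of -0.20 to 0.72 and 0.16 to 0.36 with a library left out. The non-coding transcript table lists 2 further Hnrnpa1 transcripts, XR_356017.1 and XR_356018.1, at 71.6% to 79.5% of the gene's count, so most of these reads are shared between the tables. They gave log2 fold changes of 0.29 ± 0.25 and 0.26 ± 0.25 (SE), and edgeR called 0 of the 13128 transcripts tested in that table (0%). At an unadjusted p under 0.05 there were 463 (3.53%), and DESeq2 called 24 of 13587 (0.177%); neither Hnrnpa1 transcript was in either count.

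Hnrnpk (chromosome 17, 6664730 to 6676753, plus strand) and Hnrnpu (chromosome 13, 96222093 to 96238845, minus strand) were lower in the mean. Hnrnpk, whose protein binds C-rich RNA and is loaded into vesicles with the help of the LC3 conjugation machinery in cultured cells, had 309 and 170 counts in the control libraries against 134 and 200 in the statin libraries. MSC-Exo replicate 1 was the high library and the groups overlapped. Its log2 fold change was -0.53 ± 0.38 (SE; edgeR adjusted p = 1), and -0.05 without MSC-Exo replicate 1. Rmi1, a gene on the opposite strand that overlaps the Hnrnpk locus, had 140, 140, 111 and 44 counts, and the library kit does not mark strand, so reads in the overlap cannot be assigned by strand.

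Hnrnpu, which encodes a chromatin- and RNA-binding scaffold protein reported to hold a microRNA back from vesicles in human endothelial cells, was the steadiest of the hnRNP members. Control counts were 386 and 357, statin counts 331 and 354. The groups were apart, by a small step: 67.3 ± 3.06 against 61.9 ± 1.80 CPM (SD, n = 2), a log2 fold change of -0.12 ± 0.26 (SE; edgeR adjusted p = 1) with a 95% interval of -0.70 to 0.46. Its non-coding transcript XR_359126.3, at 87.9% to 92.1% of the gene's count, was at -0.12 ± 0.30 (SE; edgeR adjusted p = 1). Cox20, which overlaps the locus on the opposite strand, had 12, 16, 12 and 49 counts.

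Syncrip (chromosome 8, 96100692 to 96266342, minus strand), also called hnRNP Q, encodes a protein that binds a motif in exosomal microRNAs of mouse hepatocytes. The counts, 78 and 125 for control and 131 and 94 for statin, did not separate the groups. The log2 fold change was 0.14 ± 0.46 (SE; edgeR adjusted p = 1), and it was -0.17 without MSC-Exo replicate 1 and -0.14 without MSCATV-Exo replicate 1. Rows for 3 other loci overlap the long Syncrip locus on the same strand, each with 64 counts or fewer in any library.

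Elavl1 (chromosome 12, 2461502 to 2502432, plus strand) encodes HuR, which stabilises mRNAs with AU-rich elements and, in starved human liver cells, drives a microRNA out in vesicles. Its counts were nearly level, at 76 and 90 for control and 87 and 87 for statin. The log2 fold change was 0.06 ± 0.48 (SE; edgeR adjusted p = 1), -0.04 with total-count scaling, and its 95% interval ran from -0.99 to 1.11. The neuronal relatives Elavl2, Elavl3 and Elavl4, which MSCs are not known to use, averaged 1.82, 3.34 and 1.84 RPKM beside 6.27 RPKM for Elavl1.

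Ago2 (chromosome 7, 114339607 to 114377277, minus strand) encodes Argonaute 2, the protein that holds a microRNA and cuts or silences its target. The control libraries had 136 and 83 counts and the statin libraries 104 and 65, the last being the lowest count of any of the 9 (exact 95% Poisson interval 50.2 to 82.8, counting error only). Replicates of each group differed by 1.62-fold and 1.64-fold, more than the 1.29-fold between the groups. The log2 fold change was -0.37 ± 0.49 (SE; edgeR adjusted p = 1), and 0.01 without MSC-Exo replicate 1. Ago1, Ago3 and Ago4 averaged 5.43, 3.09 and 3.73 RPKM.

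Nono (chromosome X, 71324365 to 71342225, plus strand) encodes a paraspeckle protein that binds structured and long non-coding RNA. It had the largest difference of the 9 with TMM scaling, though not with total counts (0.56, beside -0.62 for Hnrnpk), and MSCATV-Exo replicate 2 carried it: the control counts were 76 and 69 and the statin counts 78 and 151. The log2 fold change of 0.65 ± 0.49 (SE; edgeR adjusted p = 1) became 0.12 without that library. The MSCATV-Exo replicates differed by 1.89-fold and the groups by 1.57-fold. Sfpq, whose protein pairs with NONO, had 65 and 73 against 119 and 114 counts, with the groups apart (log2 fold change 0.75 ± 0.46, SE; edgeR adjusted p = 1), while Pspc1, the other relative in this family, had 58 and 50 against 32 and 84 (0.09 ± 0.67).

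**Figure D2:**
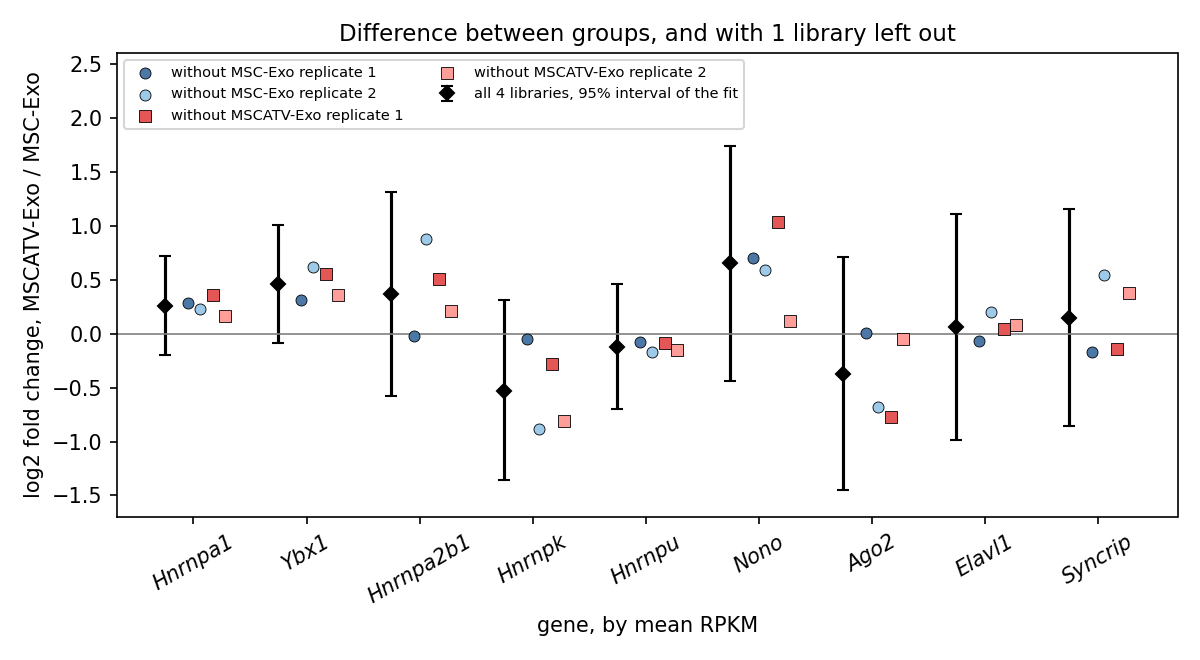
Log2 fold change of MSCATV-Exo over MSC-Exo for each gene: black diamonds are the fit to all 4 libraries with its 95% interval, and coloured points are fits with 1 library left out. All 9 intervals include 0, and the points for Hnrnpa2b1 (-0.02 to 0.88), Syncrip (-0.17 to 0.54), Elavl1 (-0.07 to 0.20) and Ago2 (-0.77 to 0.01) lie on both sides of it.

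In the comparison table that the authors deposited, 5 of the 9 had a q-value under 0.05, 3 higher (Ybx1, Nono and Hnrnpa1) and 2 lower (Hnrnpk and Ago2) in MSCATV-Exo, where 34.3% of 38021 genes did (12.4% higher, 21.9% lower). That table's q-values were 0.000151 for Hnrnpk and 0.000634 for Ybx1, both well inside the limit, and 0.0341, 0.0477 and 0.0490 for Nono, Hnrnpa1 and Ago2. The test behind the authors' deposited table is not stated in the sources used here. For Hnrnpk, 1.79-fold lay between the MSC-Exo replicates alone, against 1.44-fold between the group means.

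Many of these genes have processed pseudogenes, copies of the mRNA inserted elsewhere in the genome that can share reads with the parent. By description, 79 rows of the gene table were taken as pseudogenes of 8 of the 9 members, and 7 of them had no count. Most were typed as pseudogene. LOC100363335 and LOC100359916 (Hnrnpk) and LOC100912427 and Ybx1-ps3 (Ybx1) were typed as misc_RNA, a type left out of the other pseudogene rows below. Hnrnpa1 had 35, Ybx1 19, Nono 11, Hnrnpk 7, Syncrip 3, Hnrnpa2b1 2, Elavl1 1 and Ago2 1, and no such row was found for Hnrnpu. Their median level was 2.50 to 2.96 RPKM over the libraries, beside 2.22 to 3.06 RPKM for the 7783 other pseudogene rows and 1.71 to 2.47 RPKM for olfactory receptors. The tables do not state how reads that fit several places were counted.

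Hnrnpa1 and Ybx1 stood far above their pseudogenes. No Hnrnpa1 pseudogene row exceeded 10.6 RPKM in any library while the gene was at 66.4 RPKM or more, and the pseudogene rows with most counts, RGD1560348 and LOC108350567, had 46 to 91 and 47 to 64 counts. Summed over its 35 rows, however, Hnrnpa1 pseudogenes held 790 and 578 counts in the control and 983 and 810 in the statin libraries. The gene row thus kept 49.9% to 59.9% of the total. For Ybx1, whose leading pseudogene rows were LOC366068 and LOC102556146, the share was 46.8% to 54.4%. Hnrnpa2b1 was less far from its 2 pseudogene rows, at 25.4 RPKM beside 10.2 for RGD1562992 in MSC-Exo replicate 2, and held 59.3% to 76.1%. Adding the pseudogene counts to the gene left the log2 fold change at 0.32 ± 0.18 for Hnrnpa1 and 0.35 ± 0.21 for Ybx1 (SE).

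Nono was the reverse case. Its row held 12.3% to 28.9% of the counts of gene and pseudogenes together, and pseudogene rows such as LOC498391 (95, 69, 22 and 61 counts) and LOC680059 (74, 55, 70 and 28) were near the gene per length. LOC498391 was at 12.3 and 8.95 RPKM in the control and 2.57 and 7.57 in the statin libraries, and LOC680059 at 8.60, 6.39, 7.32 and 3.11, beside 5.89, 5.34, 5.44 and 11.2 RPKM for Nono. Nono was thus below both in the control libraries and above both in MSCATV-Exo replicate 2. With their counts added, the log2 fold change went from 0.65 to -0.26 ± 0.26 (SE). The sign also turned for Syncrip (-0.49 ± 0.40), whose pseudogene LOC100912588 had 68, 26, 22 and 0 counts. Ago2 turned as well (0.15 ± 0.38), with LOC100362151 at 18 and 28 control counts and 56 and 69 statin counts. The mean directions of Nono, Syncrip and Ago2 thus depended on whether the pseudogene rows were added. Hnrnpa2b1 (0.08 ± 0.37) and Hnrnpk (-0.32 ± 0.35) moved towards 0. Whether the added counts are reads of the members or of the pseudogene loci was not tested.

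**Figure D3:**
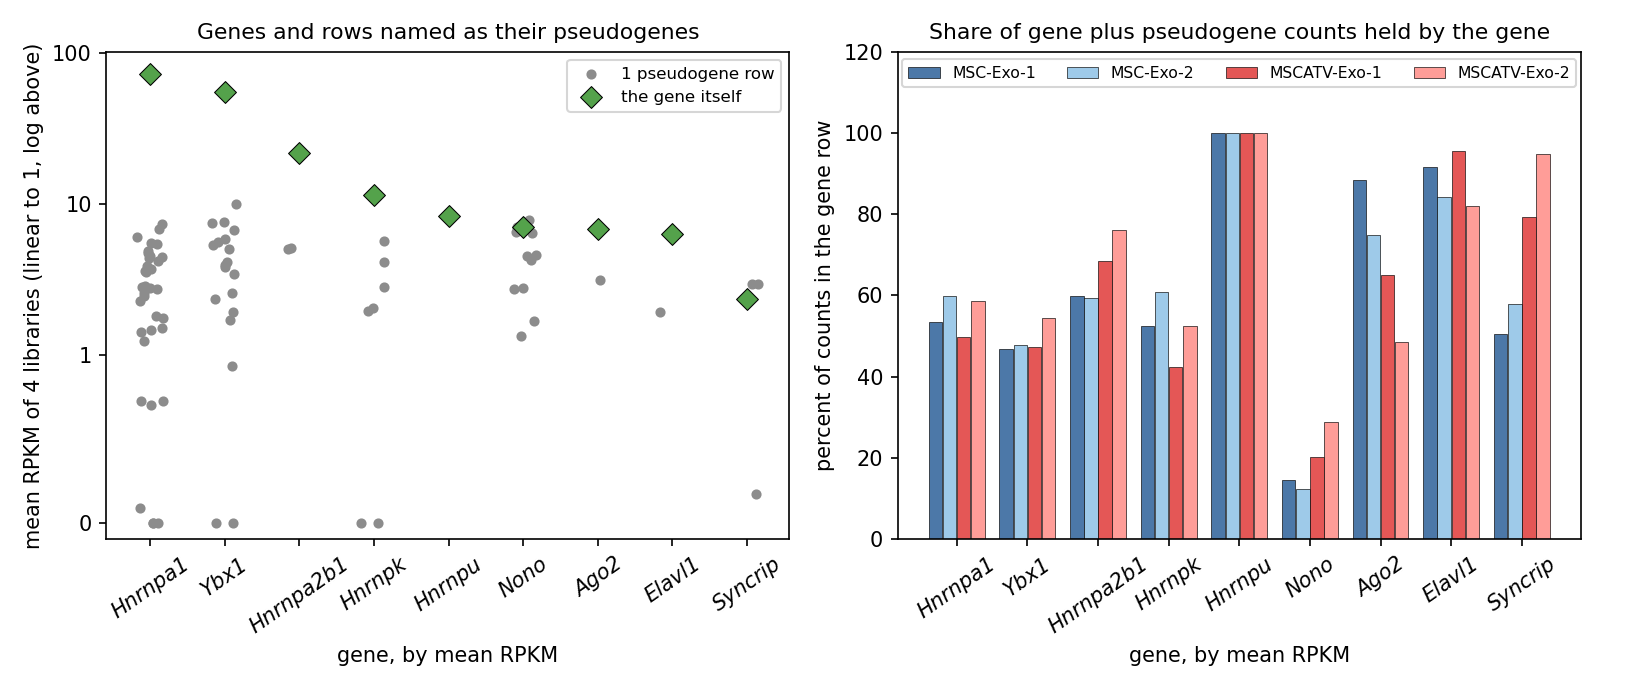
Left, mean RPKM over 4 libraries of each gene (diamonds) and of each row described as its pseudogene (dots), on an axis that is linear to 1 and logarithmic above; right, the percent of gene plus pseudogene counts held by the gene row in each library. Hnrnpa1 and Ybx1 lie well above all their pseudogenes yet hold 46.8% to 59.9% of the counts, and Nono lies among its pseudogenes and holds 12.3% to 28.9%.

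Other RNA-binding protein genes were read from 4 lists. Of 19 tested hnRNP relatives, 11 were higher and 8 lower in MSCATV-Exo (median log2 fold change 0.21, against -0.01 over all 33480 genes, of which 49.4% were higher). Of 10 close relatives and partners of Ybx1, Elavl1, Ago2 and Nono, 5 were higher and 5 lower (median -0.08), and of 13 genes of small RNA processing and silencing 6 were higher and 7 lower (-0.12). Of 28 other RNA-binding or RNA-modifying proteins linked to vesicle RNA, 21 were higher and 7 lower (0.19). These medians moved with the scaling, and so did that of all genes. With total counts 17 of the 28 were higher (median 0.08) and the hnRNP median was 0.11. The median of all genes was then -0.11, with 42.9% of them higher. None of these 70 genes passed the edgeR test, and 2 had an unadjusted p under 0.05, a share below the 3.69% of all genes, so the 2 are named for their values and not as a property of the lists.

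Both were abundant transcripts of the last list. Pabpc1, which encodes the cytoplasmic poly(A)-binding protein, had 1706 and 2147 control counts against 2900 and 2920 statin counts (log2 fold change 0.59 ± 0.18, SE; edgeR adjusted p = 1), and was the 1 gene of the 4 lists that DESeq2 called (adjusted p = 0.0185). Ncl, which encodes nucleolin and was the most abundant of the list at 229 RPKM, had 2271 and 2936 against 3560 and 3469 counts (0.43 ± 0.17; edgeR adjusted p = 1). Both MSCATV-Exo libraries were above both MSC-Exo libraries for the pair. On the lower side the smallest p belonged to Stau1 (-0.42 ± 0.37), a double-stranded RNA-binding protein, and G3bp1 (-0.29 ± 0.41), a stress granule protein.

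In the hnRNP list, the genes with the smallest p were Hnrnpf (0.58 ± 0.30, SE; edgeR adjusted p = 1) and Hnrnpa3 (0.36 ± 0.22) among the higher and Hnrnpdl (-0.62 ± 0.41) and Hnrnpll (-0.73 ± 0.60) among the lower. Hnrnpf, a binder of G-rich RNA, had 182 and 198 against 291 and 279 counts, so that its groups did not overlap. Hnrnpa3, close kin of Hnrnpa2b1, was the most abundant of the list at 27.8 RPKM, with 704 and 730 against 951 and 893 counts. Among the relatives and partners, Ybx3 was the most abundant at 14.5 RPKM and had a log2 fold change of 0.22 ± 0.38, and Sfpq, described above, had the smallest p of the higher genes. Ago1 (-0.30 ± 0.30) and Elavl4 (-0.78 ± 0.84) had the smallest p of the lower ones.

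In the small RNA list the higher genes with the smallest p were Tsnax (0.60 ± 0.49), of the translin complex, and Tarbp2 (0.44 ± 0.52), a Dicer partner and the most abundant of the list at 9.11 RPKM. The lower ones were Dgcr8 (-0.58 ± 0.35), the partner of Drosha, with 303 and 213 against 135 and 211 counts, and Tnrc6c (-0.36 ± 0.30), a partner of Argonaute. No gene of that list lay above the olfactory receptor 95th percentile in all 4 libraries, and 1 of 13 lay above 3 times the library's own olfactory receptor median in all 4, near the 2.68% and 7.98% of all protein-coding genes that did so. That 1 gene was not Tarbp2, which was at 4.98 RPKM in MSC-Exo replicate 1.

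Abundant transcripts in general were more often higher than lower in the statin group. Of 348 tested protein-coding genes with a mean of 20 RPKM or more, 263 (75.6%) were higher (median 0.24 on the log2 scale), or 229 (65.8%) with total counts (median 0.14). Hnrnpa1 at 0.26 and Ybx1 at 0.46 belong to that class by either group's mean and lay within 1 SE of its median. Hnrnpa2b1, at 0.37, reached 20 RPKM in the statin mean alone (23.8, beside 19.7 in MSC-Exo), so its place in the class depends on the difference itself. In bulk vesicle RNA, a change in the mix of vesicles and a change in the RNA within them cannot be told apart.

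**Figure D4:**
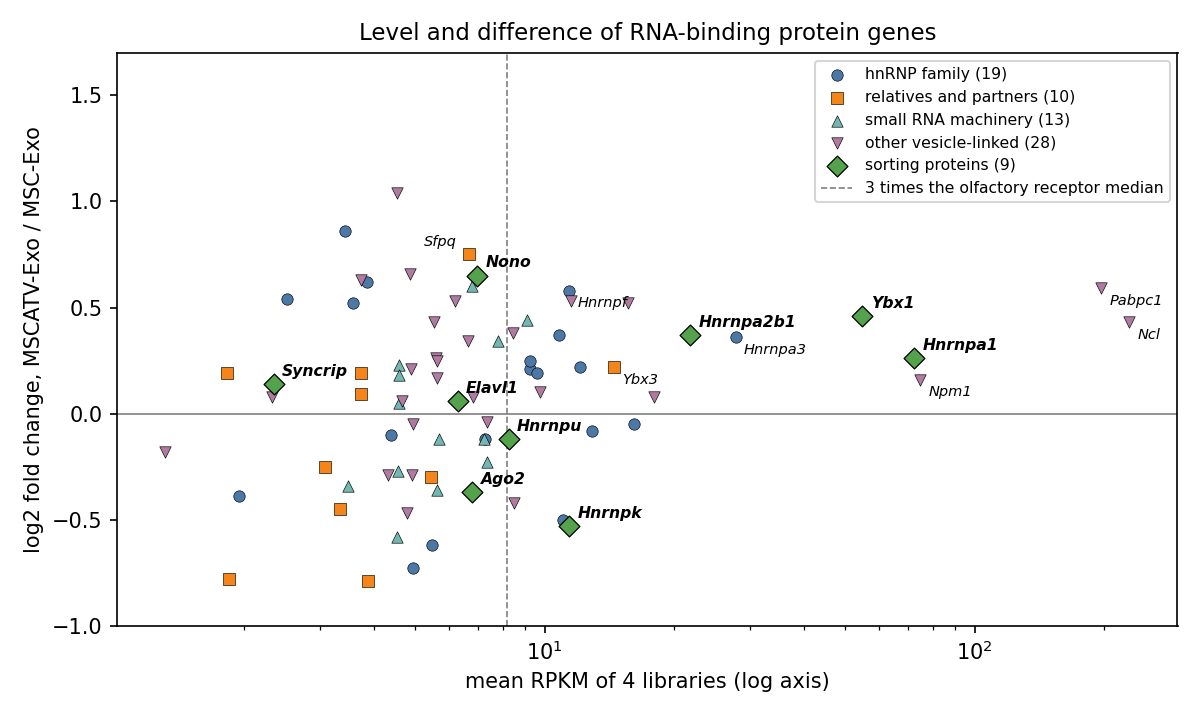
Mean RPKM over 4 libraries (log axis) against the log2 fold change of MSCATV-Exo over MSC-Exo for the 9 sorting proteins (diamonds) and the tested genes of the 4 lists. The dashed line at 8.17 RPKM is 3 times the median, over olfactory receptor genes, of the mean RPKM, and not a cut within each library. The genes with a mean above 20 RPKM (Hnrnpa2b1, Hnrnpa3, Ybx1, Hnrnpa1, Npm1, Pabpc1 and Ncl) lie above 0, from 0.16 to 0.59. Of all 348 tested protein-coding genes at that level, 75.6% were higher. Hnrnpa2b1 reached it in the MSCATV-Exo mean alone (23.8, beside 19.7 RPKM in MSC-Exo). The genes to the left scatter to both sides.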

How the data were processed

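RNA from exosomes of rat MSCs was sequenced in 2 MSC-Exo and 2 MSCATV-Exo libraries. Per the labels' protocols, total RNA was fragmented and made into libraries with a kit that does not mark strand. Per the submitters' processing notes, TopHat2 and the builds rn6 and Rnor_6.0 were used; the counter and annotation release are not given in the sources used here. The authors deposited raw counts per gene and per non-coding transcript, and RPKM values; recomputing gene RPKM from counts, lengths and the summed gene counts matched the deposited values to 0.000515%. The authors' deposited comparison table gives mean RPKM, a log2 ratio, and p-values and q-values.

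The whole gene table was fitted at once by edgeR (version 4.0.16, run under R 4.3.3) after its filterByExpr step, which kept 33480 genes and all 9 members, and TMM scaling. The quasi-likelihood test was two-sided with Benjamini-Hochberg adjustment and was checked on simulated data. The SE was derived from the fit's log2 fold change and F statistic, with a spread estimated partly from all genes tested. The depth of 5350295 to 5947020 counts lets a count of 0 hide up to 3 counts, or 0.504 to 0.561 CPM. Alternatives were DESeq2 1.42.0, limma 3.58.1 on log2(RPKM + 1) or log2(RPKM + 0.1) at a mean of at least 1 RPKM, other scalings and filters, a replicate block, leaving out each library, and adding pseudogene counts. From each list the 2 genes with the smallest p in each direction and the most abundant gene were named, and from the pseudogenes of a member the 2 with most counts. Members and lists were chosen with earlier results of these data known. Replicate numbers were not used as pairs, since the labels tie them to no shared animal or day.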

Additional observations from a re-analysis of the deposited data

How the results depend on the processing

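The 9 transcripts stayed uncalled in every alternative run. Genes past the threshold, 0 of 33480 by edgeR, numbered 8 without a filter on low counts, 1 among genes above 3 times the olfactory receptor median, 95 by DESeq2, and 1 to 168 with a library left out. With the replicate number as a block 4 genes passed, none of them a member. Differences between replicates 1 and 2 correlated at -0.00159 between the groups over all genes tested. Genes with few counts weigh as much as others in this value, so it cannot show that pairing is absent. The run limited to genes above 3 times the olfactory receptor median took a mean of 8.17 RPKM as its cut. Of the 9, 3 of the 5 members above it were higher, and the lower number follows from the fewer members. Hnrnpa1, Hnrnpk, Hnrnpu and Ybx1 kept their direction in all alternatives. Signs turned for Elavl1 with total counts (-0.04), with either limma fit (-0.03 and -0.03) and without MSC-Exo replicate 1 (-0.07 to 0.20 over the 4 libraries left out). Leaving out a library gave -0.02 to 0.88 for Hnrnpa2b1, -0.17 to 0.54 for Syncrip (-0.14 without MSCATV-Exo replicate 1) and -0.77 to 0.01 for Ago2. With pseudogene counts added, Syncrip was at -0.49, Ago2 at 0.15 and Nono at -0.26. The cause of these turns was not tested. Counts of 65 to 1153 and n = 2 limit what can be seen: the 95% intervals of 7 members reach past a log2 fold change of 1 in one direction or the other.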

Other observations

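Among the hnRNP relatives, Hnrnpab and Hnrnpc had almost no reads, which was noticed after their values were seen. Hnrnpab was listed at 0 counts in all 4 libraries, and Hnrnpc at 0, 4, 0 and 0. A second protein-coding row described as hnRNP A/B, LOC103689931, lies elsewhere on chromosome 10 with a length of 1789 bases beside 1790 for Hnrnpab, and had 0, 7, 0 and 9 counts. For Hnrnpc, LOC100911576 on chromosome 14, with 2654 bases beside 2689, was at 0 in all 4 libraries, while LOC102556082 on chromosome 19, described as hnRNP C-like 1-like (2810 bases), had 127, 110, 77 and 118 counts. Among the members such a row was sought for Ago2 alone. It was LOC108350407 on chromosome 3 (argonaute 2-like, 2362 bases), with 8, 48, 9 and 29 counts. Whether reads of such twin loci were dropped in counting was not tested.

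The mean profile of the 9 members over the libraries, as centred log2 CPM, was -0.07 and -0.03 in the control libraries and 0.00 and 0.10 in the statin libraries. Of 7761 other genes with a mean of at least 20 CPM, the nearest to it by Euclidean distance were Tgfbr3 (0.0336), Zfp46 (0.0387) and Ckap5 (0.0429), over 4 libraries only. Single members strayed far from this near-flat mean. In MSC-Exo replicate 1, Hnrnpa2b1 was at -0.64 and Hnrnpk at 0.66. In MSCATV-Exo replicate 2, Ago2 was at -0.53 and Nono at 0.73. The nearest genes thus resemble the mean and need not resemble any member.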
